A study of Mus musculus with 81 samples.

Results

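The genes described here are 46 mouse DNA replication genes, chosen by a fixed list of symbols that covers the origin recognition complex, the helicase and its loading and activating factors, the polymerases, the sliding clamp and its loader, and fork-associated factors. The list was drawn up with earlier results of these data known. All 46 were found once each among the 51826 genes of the deposited table, and all 46 passed the filter on low counts. RNA sequencing was done on 81 libraries of thymic tissue from 40 mice on a mixed C57BL/6 x 129S4Sv/Jae background. Every animal, controls included, carried Plk4 (Col1a1), rtTA (Rosa) and centrin-GFP (Rosa), and the treatment was doxycycline over 2 weeks, begun at an age of 30 days, in a study of how aneuploidy acts on tumor development. The groups were 8 normal thymuses of untreated p53+/+ mice, thymic lymphomas of 10 untreated p53-/- mice, of 9 treated p53-/- mice and of 12 treated p53+/- mice, and 1 normal thymus of an untreated p53+/- mouse that entered no test. The labels give no age at sampling. Normal thymus and lymphoma differ in tissue and in p53 genotype together, and in treatment as well for the treated groups, so these cannot be told apart in any comparison with normal thymus. Untreated p53+/- lymphomas were not analysed here.

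DNA replication starts where the origin recognition complex sits on chromatin. In G1 phase, Cdc6 and Cdt1 help it load the MCM helicase, and geminin (Gmnn) blocks Cdt1 after S phase has begun. Cdc7 with Dbf4, Mcm10, Cdc45 and the GINS complex turn the loaded helicase into a moving fork, where primase and polymerases alpha, delta and epsilon copy the strands on a clamp of Pcna. Many of these genes are targets of E2F transcription factors and are transcribed in cells that enter S phase. In the thymus, dividing cells are mainly immature thymocytes.

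Values are log2 CPM (counts per 1000000 counts of the library, after scaling), with the biopsies of one tumour summed into 1 sample. The 39 mice in the tests had total counts of between 5.01 M and 98.59 M each (M stands for 1000000). The 6 fat markers were called lower in all 3 lymphoma groups than in normal thymus, with summed levels of 823 to 12600 CPM in normal thymus and of at most 228 CPM in any lymphoma. Summed thymic epithelium markers (6 genes) ranged from 105 to 1670 CPM in normal thymus and from 2.08 to 330 CPM in the lymphomas, and 3 of the 6 had medians under 1 CPM in each lymphoma group. The 8 T lineage markers summed to between 840 and 5130 CPM in normal thymus, 151 and 4190 in untreated p53-/-, 2610 and 5400 in treated p53-/- and 2530 and 5350 CPM in treated p53+/- lymphomas. Normal mouse 387 had the lowest T lineage level of its group and the highest B lineage level (1480 CPM, against a group median of 105), and was also highest for fat (12600 CPM), macrophage (2000 CPM), stroma (2000 CPM) and erythroid markers (7260 CPM). The lymphoma of mouse 881 had 151 CPM of T lineage and 3150 CPM of B lineage markers. Double-positive thymocyte markers (6 genes) had median sums of 4770 CPM in normal thymus and of 1480, 2920 and 1660 CPM in the lymphoma groups in the same order, with 3, 1 and 2 of the 6 called lower. T lineage genes were called lower for 2, 1 and 0 of 8. Of all genes, 17.6%, 26.7% and 25.3% were called lower and 23.2%, 25.4% and 25.6% higher with all mice in the fit. B lineage markers had median sums of 105 CPM in normal thymus and of 17.7, 17.4 and 22.4 CPM in the lymphoma groups. They were called lower for 0, 6 and 5 of 6 genes, for 3, 6 and 6 without mouse 881, and for 0, 3 and 0, with 1 higher in untreated p53-/- lymphoma, without normal mouse 387. Erythroid markers were called lower for 0, 1 and 3 of 5, and for none without normal mouse 387. Stroma and vessel markers had median sums of 272 CPM in normal thymus and of 533, 697 and 496 CPM in the lymphomas. They were called higher for 2, 0 and 0 of 6, with 1 lower in treated p53+/- lymphoma, and higher for 3, 3 and 4 without normal mouse 387. These fits were added after seeing the data. In bulk tissue, fewer cells of a type and less RNA per cell cannot be told apart, and the part of these shifts in the results below was not tested. Mice 869, 870 and 328 had sex-linked genes that went against the labelled sex.

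Nearly every replication gene was higher in lymphoma than in normal thymus, in all 3 lymphoma groups. With edgeR's quasi-likelihood test (Benjamini-Hochberg adjustment over 17841 genes, called under 0.05), 43 of 46 members were higher in untreated p53-/- lymphoma, where 23.2% of all genes were called higher. In treated p53-/- lymphoma 45 were higher, against 25.4% of all genes, and in treated p53+/- lymphoma 44 were higher, against 25.6%. No member was called lower, in comparisons where 17.6%, 26.7% and 25.3% of all genes were, and the 1 member with negative estimates was Gins2 (unadjusted p = 0.413, 0.348 and 0.489). The median member log2 fold change was 1.37, 1.58 and 1.55 in the same order, against medians of 0.08, -0.04 and 0.00 over all genes tested. The 3 comparisons share the same 8 normal thymuses. The exceptions were Gins2, called in none of them, Orc4, called in 1, and Gins4, called in 2, which leaves 43 members higher in all 3.

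Averaged over the 46 members, the log2 CPM level of the normal thymuses ran from 4.40 to 5.83 with a median of 5.58. Mice 387, 978 and 961 had the lowest averages, at 4.40, 4.42 and 4.81, and the other 5 normal thymuses lay between 5.48 and 5.83. The untreated p53-/- lymphomas ran from 6.33 to 7.20 (median 6.75), the treated p53-/- lymphomas from 6.64 to 7.26 (median 7.04) and the treated p53+/- lymphomas from 6.73 to 7.44 (median 6.96). No lymphoma overlapped with normal thymus on this average. The p53+/- normal thymus of mouse 819 had an average of 5.40, inside the range of the p53+/+ thymuses, and had no member above all 8 of them. Each lymphoma had at least 32 members above every normal thymus, and the lowest number belonged to mouse 562. The share of all genes above every normal thymus in each single mouse was not computed.

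**Figure D1:**
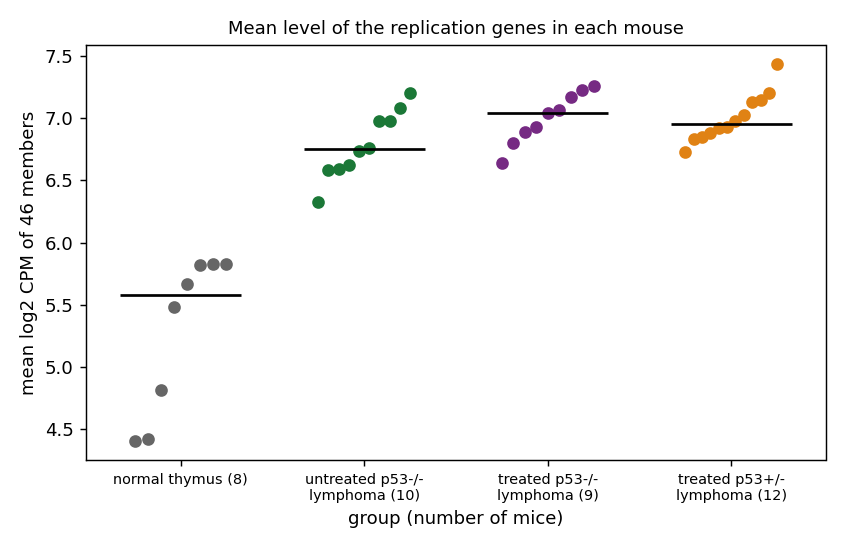
Mean log2 CPM of the 46 replication genes in each mouse (vertical axis) by group (horizontal axis), with 1 point per mouse and a line at the group median. The normal thymuses lie between 4.40 and 5.83 and the lymphomas between 6.33 and 7.44, with no overlap.

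Among single members, every mouse of the group lay above every normal thymus for 26 of 46 members in untreated p53-/- lymphoma, 38 in treated p53-/- lymphoma and 36 in treated p53+/- lymphoma. Of all genes tested, 6.11%, 10.4% and 8.8% were separated in this way. Spread between mice was larger in normal thymus, where the median SD over members was 0.69, than in the lymphoma groups, where it was 0.42, 0.38 and 0.35. Over all genes the order was the other way, with a median SD of 0.48 in normal thymus and of 0.71, 0.61 and 0.64 in the lymphomas.

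**Figure D2:**
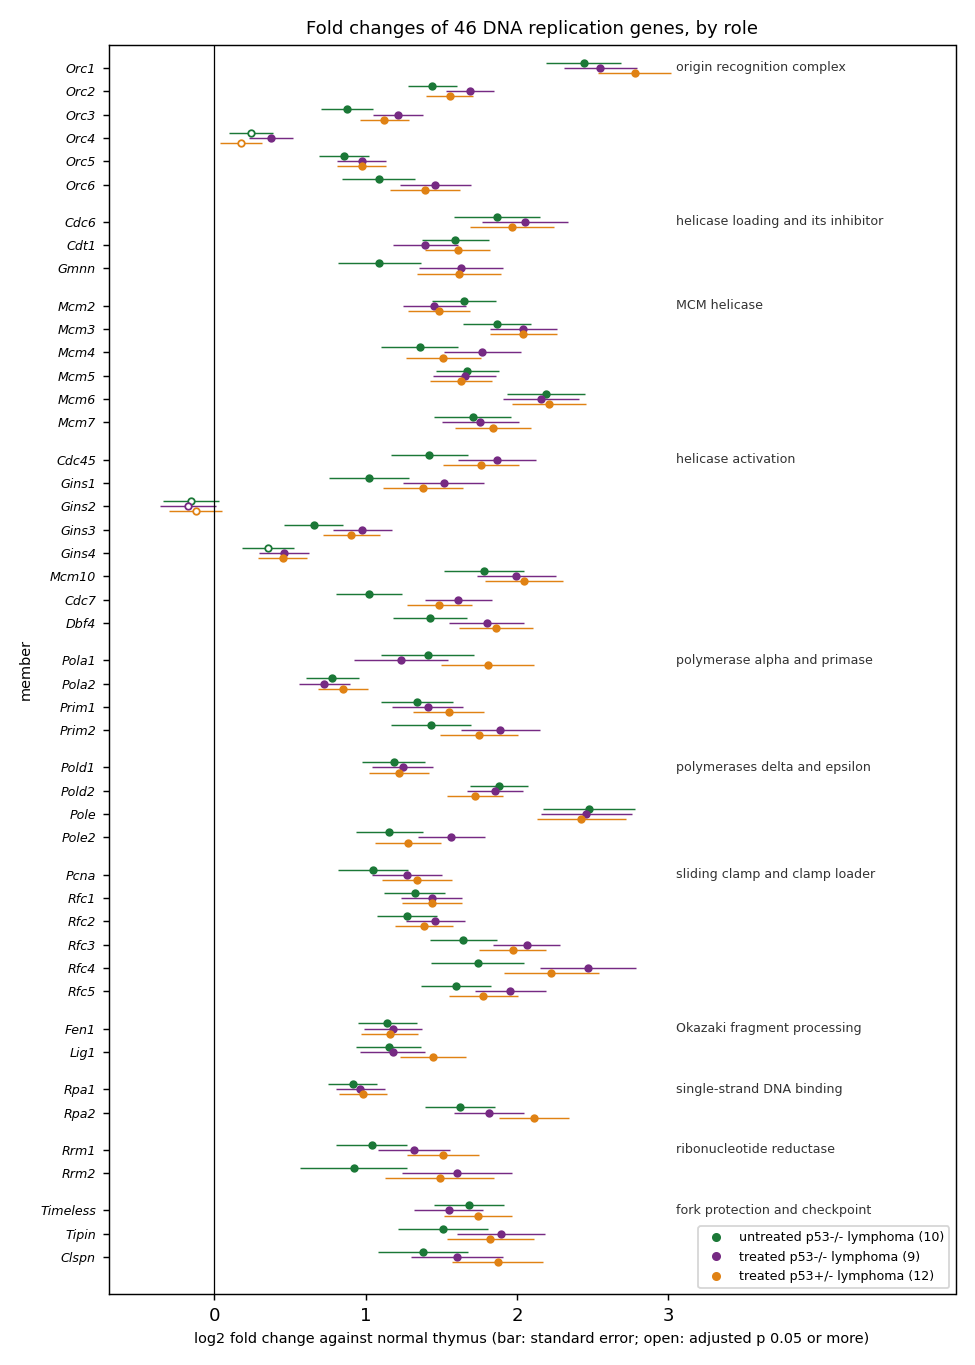
Log2 fold change of each member against normal thymus (horizontal axis), by role (vertical axis), for the 3 lymphoma groups, with the standard error as a bar and an open symbol where the adjusted p is 0.05 or more. Orc1 lies furthest to the right in treated p53-/- (2.55) and treated p53+/- lymphoma (2.78) and Pole in untreated p53-/- lymphoma (2.48), and Gins2 is the only member left of 0 in the 3 groups.

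Promoter sequences are shown for members that rose, because E2F factors are known regulators of this gene class. The RefSeq table of promoters (build GRCm38.p6, 250 bases before to 50 after each start) held 37 of the 46 members, and Gins1, Gins2, Gins4, Gmnn, Mcm4, Pole, Prim2, Rfc2 and Tipin were not matched. The E2F words searched were TTTCCCGC, TTTCGCGC, TTTGCCGC and TTTGGCGC on both strands, which can overlap each other where the reverse complement shares bases. A word was present at 15 of 37 member genes (40.5%), against 2.6% of 27025 genes with promoters in the table. Counted over promoters, 32.6% of 46 member promoters and 2.26% of 32851 promoters of the same length held one. The word CCAAT, on either strand, was present at 62.2% of the member genes and at 41.1% of all genes. A word lay before the RefSeq start in 9 members. The sequences below show the 6 of these with the largest average change (1.65 in Mcm5 to 2.59 in Orc1), a choice made after the values were seen, and Pola1 (1.48), Orc3 (1.07) and Gins3 (0.85) are not shown. They are printed on the gene's strand from 5′ to 3′, with the E2F words in capitals. They cover chr4:108579417-108579444 (Orc1, plus strand), chr1:128359774-128359845 and chr1:128359715-128359782 (Mcm6, minus), chr11:98907983-98908050 (Cdc6, plus), chr5:151651209-151651228 (Rfc3, minus), chr5:138172031-138172058 (Mcm7, minus) and chr8:75109326-75109397 (Mcm5, plus). In the GENCODE annotation, whose gene starts can differ, the windows of Orc1, Rfc3 and Mcm7 overlap exons, the Cdc6 window lies inside the gene but in no exon, and the Mcm6 and Mcm5 windows lie before the gene.
Orc1: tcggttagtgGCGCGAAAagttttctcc
Mcm6 distal: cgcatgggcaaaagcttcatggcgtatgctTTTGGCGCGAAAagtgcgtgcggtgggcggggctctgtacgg
Mcm6 proximal: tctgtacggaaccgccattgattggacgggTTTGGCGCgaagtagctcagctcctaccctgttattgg
Cdc6: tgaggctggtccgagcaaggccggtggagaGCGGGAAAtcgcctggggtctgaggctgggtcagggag
Rfc3: cgtcgcacgcTTTCGCGCtc
Mcm7: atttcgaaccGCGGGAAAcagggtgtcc
Mcm5: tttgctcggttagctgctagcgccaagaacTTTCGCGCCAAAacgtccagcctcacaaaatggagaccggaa

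In Mcm6 the distal window and in Mcm5 the single window hold a pair of overlapping words, 1 on each strand. The log2 fold change averaged over the 3 comparisons had a median of 1.62 in the 15 members with a word (0.85 in Gins3 to 2.59 in Orc1) and of 1.42 in the 22 without (0.26 in Orc4 to 2.15 in Rfc4), so the ranges overlap. These matches describe letters in a window, and binding was not measured.

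Within the origin recognition complex, which marks the places where replication starts, Orc1 rose most and Orc4 least. Orc1, the subunit whose level is known to vary through the cell cycle, lies on the plus strand at chr4:108579423-108614833 (GRCm38). It had log2 CPM levels of 0.99, 2.63 and 2.98 (lowest, median and highest mouse) in normal thymus and of 3.87, 4.85 and 5.91 in untreated p53-/- lymphoma. Its levels were 4.69, 5.06 and 5.55 in treated p53-/- and 4.36, 5.43 and 5.70 in treated p53+/- lymphoma. No lymphoma overlapped with normal thymus. The changes on the log2 scale were 2.44 ± 0.25 (SE, adjusted p = 1.93e-09 by edgeR), 2.55 ± 0.24 (3.07e-10) and 2.78 ± 0.24 (3.34e-11), given for the untreated p53-/- group first, then the treated p53-/- and the treated p53+/- group, the order used from here on.

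Orc4, a core subunit, had levels of 5.05, 5.46 and 5.56 in normal thymus. Its levels were 5.17, 5.77 and 6.18 in untreated p53-/-, 5.50, 5.90 and 6.31 in treated p53-/- and 4.91, 5.73 and 6.27 in treated p53+/- lymphoma. All 3 groups overlapped with normal thymus, and 8 of 10, 7 of 9 and 8 of 12 mice lay above every normal thymus. Fold changes (log2) were 0.24 ± 0.15 (adjusted p = 0.195 by edgeR), 0.37 ± 0.14 (0.0302) and 0.17 ± 0.14 (0.303), and the call in treated p53-/- lymphoma was lost under 4 alternatives, among them limma voom over all biopsies (adjusted p = 0.0632). Orc2, Orc3, Orc5 and Orc6 were called higher in all 3 groups, with log2 fold changes between 0.86 (Orc5) and 1.69 (Orc2). Orc2, another core subunit, had levels of 4.57, 5.09 and 5.41 in normal thymus and of 6.08 to 7.34 over all lymphomas, without overlap, with log2 fold changes of 1.44 ± 0.16, 1.69 ± 0.16 and 1.56 ± 0.16 (adjusted p = 1.03e-08, 2.49e-10 and 5.29e-10 by edgeR). Of the exon bases of Orc2, 29.8% lie opposite to exons of Nif3l1, and the strandedness of the counting is not given in the sources used here.

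The ratio of Orc1 to Orc2 was higher in all 3 lymphoma groups than in normal thymus. The log2 ratio of Orc1 to Orc2 was -3.88, -2.52 and -2.24 in normal thymus, -2.21, -1.66 and -1.14 in untreated p53-/-, -2.30, -1.67 and -1.41 in treated p53-/- and -2.43, -1.26 and -0.81 in treated p53+/- lymphoma. The mean differences from normal thymus were 1.02 (exact two-sided permutation p = 4.57e-05, adjusted p = 0.000476 over 15 tests of 3 ratios), 0.96 (p = 0.000165, adjusted 0.000823) and 1.32 (p = 6.35e-05, adjusted 0.000476). In 10 of 10, 8 of 9 and 11 of 12 lymphomas the ratio was above every normal thymus. Between treated and untreated p53-/- lymphoma it differed by -0.06 (exact permutation, adjusted p = 0.749), and between treated p53+/- and treated p53-/- lymphoma by 0.36 (adjusted p = 0.157). Per kb of transcript, the median Orc1 level rose from 2.04 CPM in normal thymus to between 9.53 and 14.3 CPM in the lymphoma groups. Orc1 had the lowest level per kb of the 6 subunits in normal thymus, where the others had medians of 9.54 to 23.8 CPM per kb. In both p53-/- lymphoma groups it was still the lowest, with medians of 9.53 and 11 CPM per kb against 13.4 and 14.6 for Orc4, and in treated p53+/- lymphoma it had 14.3 against 13 for Orc4.

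Cdc6, the ATPase that joins the origin complex to load the helicase, rose most of the loading factors. Its levels were 2.59, 4.87 and 5.26 in normal thymus, 5.79, 6.68 and 7.0 in untreated p53-/-, 6.20, 6.53 and 7.35 in treated p53-/- and 6.01, 6.70 and 7.25 in treated p53+/- lymphoma, without overlap. Against normal thymus the log2 changes were 1.87 ± 0.28, 2.05 ± 0.28 and 1.97 ± 0.28 (adjusted p = 2.47e-06, 2.96e-07 and 3.94e-07 by edgeR). Cdt1, its partner in loading, ran from 4.18 to 5.79 in normal thymus (median 5.28) and from 6.11 to 7.72 over all lymphomas, with medians of 6.89, 6.75 and 6.76. In log2 terms the changes were 1.59 ± 0.22, 1.40 ± 0.22 and 1.61 ± 0.22 (adjusted p = 5.39e-07, 2.24e-06 and 1.71e-07).

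Geminin, the inhibitor of Cdt1, also rose. Gmnn levels were 3.27, 4.83 and 5.91 in normal thymus, 5.38, 6.00 and 6.71 in untreated p53-/-, 5.92, 6.25 and 7.64 in treated p53-/- and 5.62, 6.43 and 7.01 in treated p53+/- lymphoma. The untreated p53-/- and treated p53+/- groups overlapped with normal thymus. The log2 fold changes were 1.09 ± 0.27, 1.63 ± 0.28 and 1.62 ± 0.28 (adjusted p = 0.00166, 8.93e-06 and 9.34e-06 by edgeR). The log2 ratio of Cdt1 to Gmnn had a median of 0.52 in normal thymus (-0.12 to 1.1), 0.66 in untreated p53-/- (0.12 to 1.70), 0.45 in treated p53-/- (-0.85 to 0.74) and 0.46 in treated p53+/- lymphoma (-0.06 to 1.27). Its means differed from normal thymus by 0.27, -0.28 and -0.03 (exact permutation, adjusted p = 0.314, 0.314 and 0.872). Between treated and untreated p53-/- lymphoma it differed by -0.55 (exact permutation p = 0.0281, adjusted 0.105, past 0.05 at 0.0447 with a difference of -0.62 when mouse 881 was left out). The range of adjusted p over the alternatives was 0.0447 to 0.203. Between treated p53+/- and treated p53-/- lymphoma the ratio differed by 0.25 (exact permutation p = 0.213, adjusted 0.314), and by 0.12 (adjusted 0.763) with single-biopsy tumours only. With those tumours the differences from normal thymus were 0.425, -0.153 and -0.031.

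The 6 subunits of the MCM ring, the helicase that unwinds the DNA ahead of the fork, were called higher in every comparison, with log2 fold changes between 1.36 (Mcm4) and 2.21 (Mcm6). Mcm6 levels were 5.70, 6.86 and 7.44 in normal thymus and 8.11, 9.08 and 9.76 in untreated p53-/-, 8.38, 9.07 and 9.53 in treated p53-/- and 8.13, 9.10 and 9.76 in treated p53+/- lymphoma. Fold changes (log2) were 2.19 ± 0.26, 2.16 ± 0.25 and 2.21 ± 0.25 (adjusted p = 2.48e-08, 1.21e-08 and 4.11e-09 by edgeR). Mcm2, with the smallest average change of the ring, had levels of 5.36, 6.94 and 7.24 in normal thymus and of 7.64 to 8.97 over all lymphomas, with medians of 8.49, 8.30 and 8.22. Against normal thymus the log2 changes were 1.65 ± 0.21, 1.45 ± 0.21 and 1.48 ± 0.20 (adjusted p = 1.24e-07, 5.25e-07 and 2.41e-07). For all 6 subunits and all 3 groups, every lymphoma lay above every normal thymus. Per kb of transcript, the medians of the 6 subunits ran from 28.7 (Mcm4) to 61.7 CPM (Mcm7) in normal thymus. In untreated p53-/- lymphoma they ran from 70.9 (Mcm4) to 186 CPM per kb (Mcm6). The treated p53-/- values were 81.2 (Mcm4) to 186 (Mcm7) and the treated p53+/- values 74.8 (Mcm4) to 188 CPM per kb (Mcm6). Mcm4 had the lowest median of the ring in all 4 groups.

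**Figure D3:**
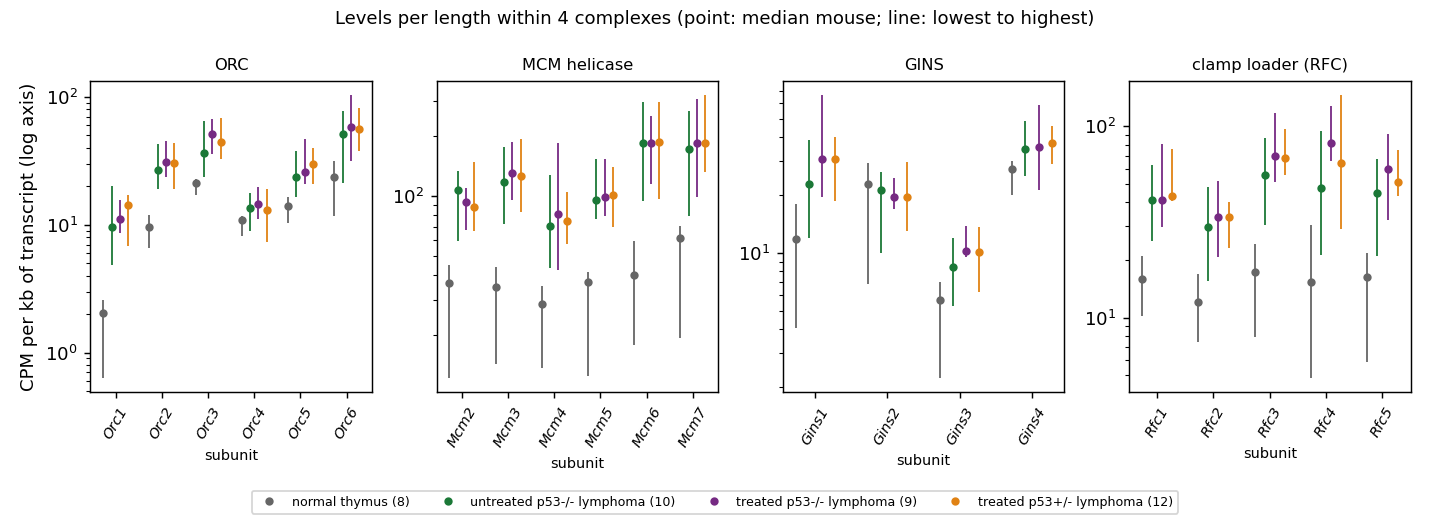
Levels per length (CPM per kb of transcript, log axis) of the subunits of the origin recognition complex (ORC), the MCM helicase, GINS and the clamp loader, with a point at the median mouse and a line from the lowest to the highest mouse of each group. All 6 MCM subunits sit higher in lymphoma, while Gins2 has medians of 22.7 CPM per kb in normal thymus and 19.5 to 21.3 in the lymphomas.

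Among the factors of helicase activation, Mcm10 rose most and Gins2 was not called. Mcm10, a scaffold needed for origin firing, had levels of 2.33, 4.70 and 5.06 in normal thymus and of 5.77, 6.30 and 6.97 in untreated p53-/-, 6.29, 6.44 and 6.86 in treated p53-/- and 6.10, 6.36 and 7.14 in treated p53+/- lymphoma, without overlap. In log2 terms the changes were 1.78 ± 0.26, 2.00 ± 0.26 and 2.05 ± 0.26 (adjusted p = 1.39e-06, 1.03e-07 and 4.08e-08 by edgeR). Cdc45, which rides with the helicase, and the kinase pair Cdc7 and Dbf4 were called higher in all 3 groups, with log2 fold changes between 1.02 (Cdc7 in untreated p53-/-) and 1.87 (Cdc45 in treated p53-/-).

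The 4 GINS subunits, which form one tetramer that joins Cdc45 and the MCM ring, did not move alike. Gins1 rose by 1.02, 1.52 and 1.38 on the log2 scale and Gins3 by 0.66, 0.98 and 0.91, all called. The Gins3 call in untreated p53-/- lymphoma was lost with no scaling factors (adjusted p = 0.0577 by edgeR) and with only the 2 groups compared (0.0647). Gins4 had levels of 4.76, 5.21 and 5.34 in normal thymus, 5.08, 5.55 and 6.04 in untreated p53-/-, 4.84, 5.58 and 6.31 in treated p53-/- and 5.30, 5.65 and 5.95 in treated p53+/- lymphoma, and all groups overlapped with normal thymus. It had log2 fold changes of 0.35 ± 0.17 (adjusted p = 0.0934 by edgeR), 0.46 ± 0.17 (0.0199) and 0.45 ± 0.16 (0.0187). Its calls in the treated groups were lost with no scaling factors, at 0.38 and 0.32 (adjusted p = 0.0683 and 0.121 by edgeR). They were also lost with single-biopsy tumours only, at 0.23 and 0.37 (adjusted p = 0.242 and 0.0666 by edgeR). The call in treated p53-/- lymphoma was also lost with limma voom over all biopsies (adjusted p = 0.0594), and the comparison of untreated p53-/- lymphoma passed the threshold with no sex covariate (0.39, adjusted p = 0.044 by edgeR) and without mouse 643 (0.45, adjusted p = 0.0392), a library with 26.8% of its counts in 1 gene.

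Gins2 levels were 4.75, 6.47 and 6.84 in normal thymus, 5.29, 6.37 and 6.69 in untreated p53-/-, 6.04, 6.25 and 6.58 in treated p53-/- and 5.67, 6.25 and 6.86 in treated p53+/- lymphoma. All groups overlapped, and 1 lymphoma of 31 lay above every normal thymus. The changes on the log2 scale were -0.15 ± 0.18, -0.17 ± 0.18 and -0.12 ± 0.18 (adjusted p = 0.532, 0.439 and 0.579 by edgeR). Gins2 lies on the minus strand at chr8:120578633-120589304 (GRCm38), and of its 4097 annotated exon bases 2758 (67.3%) lie opposite to exons of Gse1. Gse1 itself had log2 fold changes of -0.76 ± 0.34 (adjusted p = 0.0698 by edgeR), -1.1 ± 0.34 (0.00703) and -1.23 ± 0.32 (0.00157). Since it is not given whether strand was used in counting, reads of the pair cannot be told apart, and the part of Gse1 in the Gins2 values was not tested. Gins1, Gins3 and Gins4 share no exon bases with other annotated genes. Per kb, the medians of Gins2 and Gins4 were 22.7 and 27.3 CPM in normal thymus and 19.5 and 37.2 CPM in treated p53+/- lymphoma. The per-length values of Gins2 rest on an annotated transcript of 3900 bases.

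**Figure D4:**
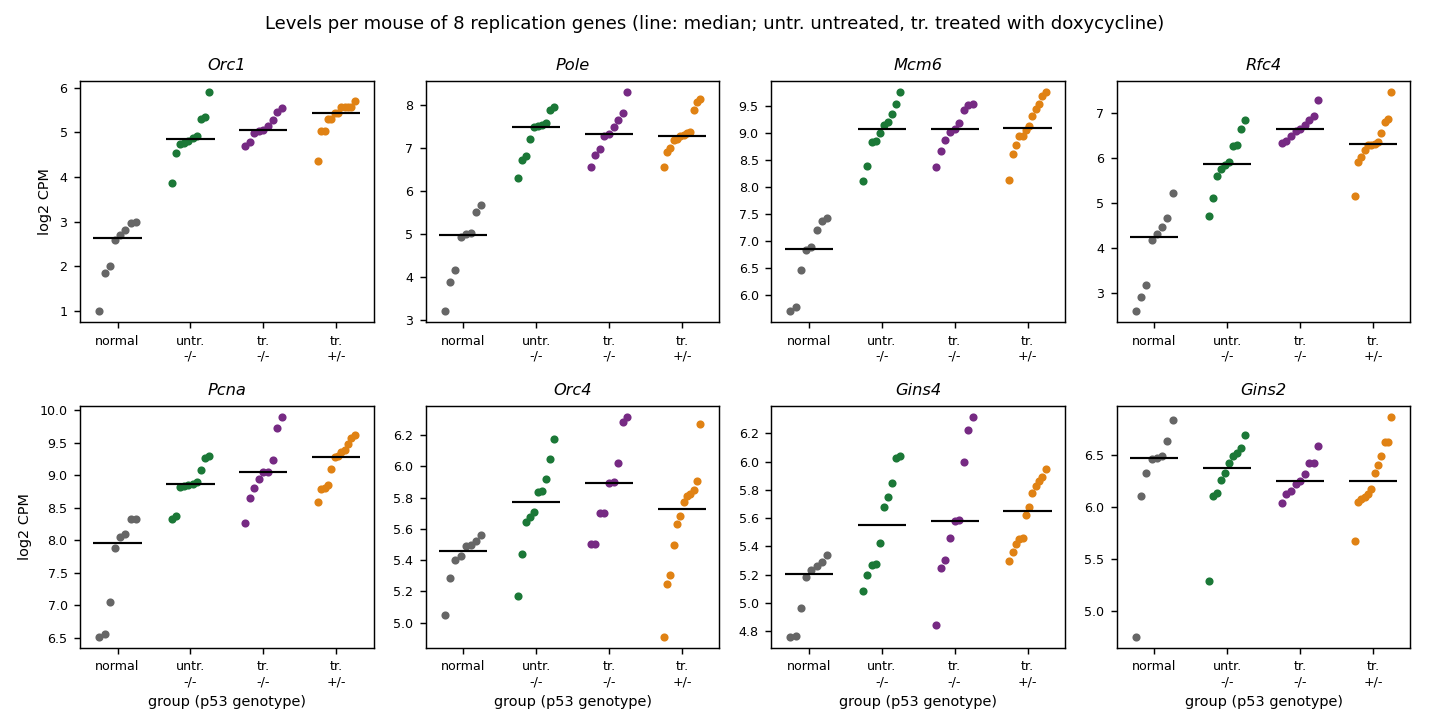
Log2 CPM (vertical axes, scaled to each gene) of 8 members in each mouse by group (horizontal axes), with a line at the median. Orc1, Pole and Mcm6 separate the lymphomas from normal thymus, Rfc4 and Pcna do so with few exceptions, and Orc4, Gins4 and Gins2 overlap.

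Polymerase alpha and its primase start each new strand. Prim2, the large primase subunit, had levels of 3.76, 4.96 and 5.46 in normal thymus, 5.86, 6.31 and 7.15 in untreated p53-/-, 5.54, 6.79 and 7.82 in treated p53-/- and 6.07, 6.70 and 7.29 in treated p53+/- lymphoma. With biopsies summed, no lymphoma overlapped with normal thymus. Biopsies 5 and 8 of treated p53+/- mouse 884 (4.78 and 4.57) lay inside the normal range. The SD of Prim2 among treated p53-/- mice was 0.80, the widest of any member in a lymphoma group. Its log2 fold changes were 1.43 ± 0.26, 1.89 ± 0.26 and 1.75 ± 0.26 (adjusted p = 4.24e-05, 3.49e-07 and 8.21e-07 by edgeR). Pola2, the accessory subunit, moved least in this list, from 4.80, 5.68 and 6.18 in normal thymus to medians of 6.49, 6.44 and 6.52 with a range of 5.63 to 7.20, so the groups overlapped. Against normal thymus the log2 changes were 0.78 ± 0.17, 0.73 ± 0.17 and 0.85 ± 0.16 (adjusted p = 0.000462, 0.000544 and 5.58e-05). Prim1 and the catalytic subunit Pola1 were called in all 3 groups, with log2 fold changes between 1.23 and 1.81.

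Polymerase epsilon copies the leading strand and polymerase delta the lagging strand. Pole, the catalytic subunit of epsilon, had levels of 3.19, 4.97 and 5.67 in normal thymus and of 6.31, 7.5 and 7.96 in untreated p53-/-, 6.57, 7.34 and 8.31 in treated p53-/- and 6.55, 7.29 and 8.14 in treated p53+/- lymphoma. No lymphoma overlapped with normal thymus. In log2 terms the changes were 2.48 ± 0.30, 2.46 ± 0.30 and 2.43 ± 0.30 (adjusted p = 5.43e-08, 3.65e-08 and 2.62e-08 by edgeR). Pole2, the second subunit of the enzyme, rose by 1.16, 1.57 and 1.28. Per kb, the median of Pole was below that of Pole2 in normal thymus (4.37 against 6.46 CPM per kb) and above it in each lymphoma group (25.3 against 12.2, 22.5 against 17.5 and 21.8 against 13.4 CPM per kb). Pold1, the catalytic subunit of delta, had levels of 4.70, 5.91 and 6.27 in normal thymus and medians of 7.03, 7.07 and 6.97 in the lymphomas, where 1 treated p53+/- mouse was not above every normal thymus. The changes on the log2 scale were 1.18 ± 0.21, 1.24 ± 0.20 and 1.22 ± 0.20 (adjusted p = 1.94e-05, 4.18e-06 and 3.83e-06). Pold2 rose more, by 1.88, 1.86 and 1.72.

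The sliding clamp Pcna, which tethers the polymerases, had the smallest average change of its list, although its level per kb was the highest of all members in each group (medians of 164 CPM per kb in normal thymus and 307, 349 and 411 in the lymphomas). Its log2 CPM levels were 6.52, 7.96 and 8.33 in normal thymus, 8.33, 8.86 and 9.30 in untreated p53-/-, 8.26, 9.05 and 9.89 in treated p53-/- and 8.59, 9.28 and 9.62 in treated p53+/- lymphoma. Only 1 treated p53-/- mouse fell within the normal range. Fold changes (log2) were 1.05 ± 0.23, 1.27 ± 0.23 and 1.34 ± 0.23 (adjusted p = 0.000457, 2.47e-05 and 1.06e-05 by edgeR).

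Rfc4, a subunit of the loader that opens the clamp, rose most of its complex. Its levels were 2.59, 4.24 and 5.22 in normal thymus, 4.71, 5.87 and 6.86 in untreated p53-/-, 6.33, 6.65 and 7.30 in treated p53-/- and 5.16, 6.30 and 7.47 in treated p53+/- lymphoma. The treated p53-/- group did not overlap with normal thymus, while 2 untreated p53-/- mice and 1 treated p53+/- mouse did. The log2 fold changes were 1.74 ± 0.31, 2.47 ± 0.32 and 2.23 ± 0.31 (adjusted p = 2.81e-05, 7.65e-08 and 3.54e-07 by edgeR). Rfc1, Rfc2, Rfc3 and Rfc5 were called in all 3 groups with log2 fold changes between 1.27 (Rfc2) and 2.06 (Rfc3).

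Fen1 and Lig1 trim and seal the Okazaki fragments of the lagging strand. Lig1 levels were 4.92, 6.56 and 6.96 in normal thymus, with medians of 7.62, 7.73 and 7.90 in the lymphomas, and 1 untreated p53-/- mouse (6.90) overlapped. In log2 terms the changes were 1.15 ± 0.22, 1.18 ± 0.22 and 1.44 ± 0.22 (adjusted p = 6.06e-05, 2.91e-05 and 9.88e-07 by edgeR). Fen1 levels were 4.18, 5.59 and 5.91 in normal thymus with medians of 6.62, 6.69 and 6.63 in the lymphomas, where 1 treated p53-/- mouse (5.78) overlapped. The changes on the log2 scale were 1.14 ± 0.20, 1.18 ± 0.19 and 1.16 ± 0.19 (adjusted p = 1.66e-05, 5.49e-06 and 4.40e-06). Of the Fen1 exon bases 84.2% lie opposite to exons of other genes, mostly the antisense gene Gm10143, so its counts carry the limit given for Gins2.

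The single-strand binding subunits Rpa1 and Rpa2, which coat unwound DNA, were both higher. Rpa2 went from 4.09, 5.43 and 6.11 in normal thymus to medians of 7.15, 7.31 and 7.57, with 1 untreated p53-/- mouse (6.08) inside the normal range. Fold changes (log2) were 1.62 ± 0.23, 1.81 ± 0.23 and 2.11 ± 0.23 (adjusted p = 7.67e-07, 7.08e-08 and 3.01e-09 by edgeR). Rpa1 went from 6.12, 7.12 and 7.26 to medians of 7.87, 8.11 and 8.13 without overlap. Against normal thymus the log2 changes were 0.91 ± 0.16, 0.97 ± 0.16 and 0.98 ± 0.16 (adjusted p = 3.21e-05, 6.41e-06 and 3.40e-06).

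Ribonucleotide reductase makes the deoxynucleotides, with Rrm1 as the large subunit and Rrm2 as the small subunit made in S phase. Rrm2 levels were 4.54, 6.90 and 7.64 in normal thymus, 6.82, 7.81 and 8.56 in untreated p53-/-, 7.54, 8.23 and 9.10 in treated p53-/- and 7.40, 8.19 and 9.09 in treated p53+/- lymphoma. All 3 groups overlapped with normal thymus, and 5 of 10, 8 of 9 and 11 of 12 mice lay above it. The log2 fold changes were 0.92 ± 0.35, 1.60 ± 0.36 and 1.49 ± 0.36 (adjusted p = 0.0359, 0.000387 and 0.000813 by edgeR). The call in untreated p53-/- lymphoma was lost when normal mouse 961 (0.81, adjusted p = 0.0641) or 978 (0.74, adjusted p = 0.0844) was left out, and under 4 other alternatives. Rrm1 levels were 6.07, 7.51 and 8.02 in normal thymus with medians of 8.34, 8.89 and 9.02 in the lymphomas, and 3 untreated p53-/- mice overlapped. The changes on the log2 scale were 1.04 ± 0.24, 1.32 ± 0.24 and 1.51 ± 0.24 (adjusted p = 0.000636, 2.16e-05 and 2.48e-06). The log2 ratio of Rrm2 to Rrm1 had medians of -0.79 in normal thymus and -0.77, -0.39 and -0.67 in the lymphomas. Its means differed from normal thymus by 0.09, 0.47 and 0.21 (exact permutation, adjusted p = 0.749, 0.157 and 0.437). Without normal mouse 387 these differences were 0.005, 0.387 and 0.126, and with single-biopsy tumours only 0.214, 0.305 and 0.18. Between treated and untreated p53-/- lymphoma the ratio differed by 0.38 (exact permutation p = 0.0525, adjusted 0.157), and by 0.09 (adjusted 0.814) with single-biopsy tumours only. Between treated p53+/- and treated p53-/- lymphoma it differed by -0.26 (exact permutation p = 0.165, adjusted 0.31), and by -0.13 (adjusted 0.763) with single-biopsy tumours only.

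Timeless and Tipin form a pair that steadies the fork, and claspin (Clspn) carries the checkpoint signal there. Tipin went from 3.95, 5.45 and 5.85 in normal thymus to medians of 6.99, 7.14 and 7.01, and 1 untreated p53-/- mouse (5.83) overlapped. Fold changes (log2) were 1.51 ± 0.30, 1.90 ± 0.29 and 1.82 ± 0.29 (adjusted p = 9.90e-05, 1.71e-06 and 2.85e-06 by edgeR). Clspn went from 3.47, 5.63 and 6.37 to medians of 6.90, 7.12 and 7.36, and 1 untreated p53-/- mouse (5.89) overlapped. Against normal thymus the log2 changes were 1.38 ± 0.30, 1.60 ± 0.30 and 1.87 ± 0.30 (adjusted p = 0.000327, 3.94e-05 and 3.23e-06). Timeless was called in all 3 groups, with log2 fold changes of 1.68, 1.55 and 1.74.

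Among the lymphoma groups, the replication genes did not differ past the threshold. In a separate edgeR fit of the 31 lymphomas, 0 members were called between treated and untreated p53-/- lymphoma, 0 between treated p53+/- and treated p53-/- lymphoma and 0 between treated p53+/- and untreated p53-/- lymphoma, where 0% of 16387 genes were called in each comparison. DESeq2 and limma voom also called 0 members. At an unadjusted p under 0.05 there were 4, 1 and 0 members by edgeR, 4, 1 and 1 by DESeq2 and 4, 1 and 0 by limma voom. By edgeR these were 8.7%, 2.17% and 0% of the members, below the 11.7%, 5.28% and 6.34% of all genes. In this fit the members named next therefore do not exceed the background. The shares of all genes were 12.9%, 6.7% and 7.5% by DESeq2 and 9.49%, 5.14% and 5.82% by limma voom, also above those of the members. The 4 were all higher in treated than in untreated p53-/- lymphoma, namely Gmnn by 0.46 ± 0.22 (edgeR adjusted p = 0.423), Cdc7 by 0.49 ± 0.18 (0.311), Rfc4 by 0.62 ± 0.26 (0.363) and Rrm2 by 0.55 ± 0.27 (0.426). The other was the X-linked Pola1, higher by 0.54 ± 0.24 in treated p53+/- than in treated p53-/- lymphoma (edgeR adjusted p = 0.937). Over the alternatives these differences ranged from 0.18 to 0.57 for Gmnn, 0.36 to 0.63 for Cdc7, 0.61 to 0.73 for Rfc4, 0.31 to 0.67 for Rrm2 and 0.29 to 0.58 for Pola1. Without mice 869, 870 and 328, whose sex-linked genes went against the label, 2, 0 and 0 members had an unadjusted p under 0.05 (4.35%, 0% and 0%, against 9.49%, 5.13% and 5.55% of all genes). The labels give 9 of 10 untreated p53-/-, 4 of 9 treated p53-/- and 3 of 12 treated p53+/- mice as male, and labelled sex was a covariate of the fit. Without that covariate, 10, 1 and 8 members had an unadjusted p under 0.05 (21.7%, 2.17% and 17.4%, against 14%, 7.15% and 14.3% of all genes), with none called. With edgeR fits of only the 2 groups, the share was 6.52% of members and 3.01% of all genes between treated p53+/- and untreated p53-/- lymphoma. Between treated and untreated p53-/- lymphoma, the 2 shares were 10.9% and 10.4% with no scaling factors. With single-biopsy tumours only they were 6.52% and 6.27%.

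Several biopsies were taken from 13 tumours (54 libraries), and the average over the 46 members was higher in every biopsy than in every normal thymus. For single members, between 32 (mouse 881) and 45 of the 46 had all biopsies of a tumour above every normal thymus. The share of all genes that met this condition was not computed. The average over the 46 members spanned between 0.10 and 0.74 log2 units within a tumour, with a median of 0.21. The widest spans were in treated p53-/- mice 870 (6.84 to 7.57) and 869 (6.75 to 7.32). The lowest biopsy average was 6.49 (mouse 881), and the highest normal thymus library had 5.9. For each of the 46 members, the SD among biopsies of a tumour was smaller than the SD among the 13 tumour means, with medians of 0.23 and 0.38. The latter SD also includes differences between the 3 groups.

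**Figure D5:**
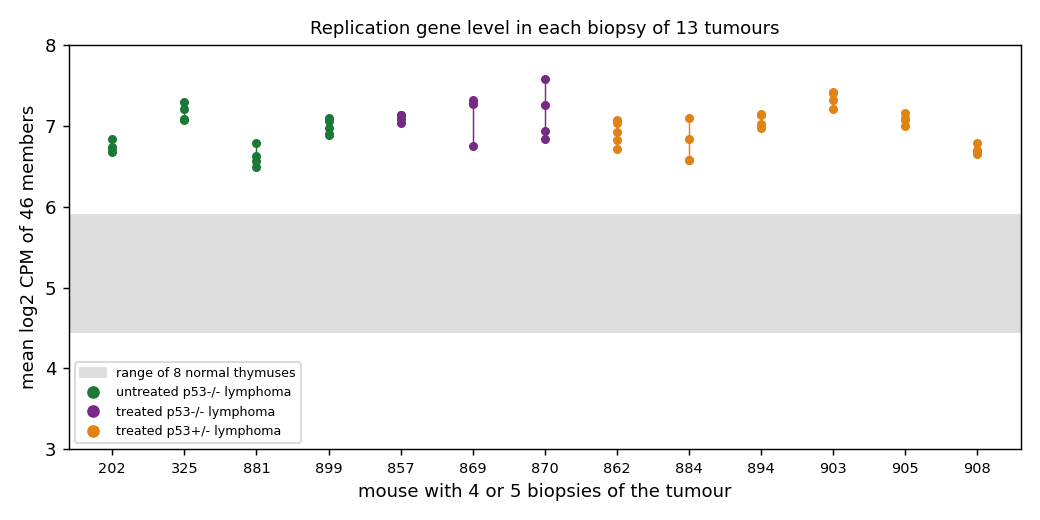
Mean log2 CPM of the 46 members (vertical axis) in each biopsy of the 13 tumours with 4 or 5 biopsies (horizontal axis, by mouse), with the range of the 8 normal thymuses as a grey band. Biopsies of one tumour span 0.10 to 0.74, and none enters the band.

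The widest range of a single member within a tumour was that of Prim2 in treated p53+/- mouse 884, with levels of 7.13 in biopsy 2, 4.78 in biopsy 5, 5.51 in biopsy 6 and 4.57 in biopsy 8. The average over all members in these biopsies was 7.09, 6.57, 6.84 and 6.58. For Prim2, biopsies 5 and 8 lay inside the range of normal thymus. Of the 4 nearest genes on each side with a mean of at least 5 CPM, Phf3 ranged by 1.25 and Zfp451 by 1.03, and the others by 0.27 to 0.99. Rfc4 ranged from 5.77 to 7.28 over the 5 biopsies of treated p53+/- mouse 862. Pole2 ranged from 4.55 to 5.95 over the biopsies of treated p53-/- mouse 857, among which are the shallowest libraries of the series (1.03 M and 1.71 M counts).

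The members lie on 15 chromosomes, with 9 on chromosome 5 and 6 on chromosome 8. Median log2 fold changes of the other tested genes on chromosome 5 were 0.49, 0.47 and 0.43 in the 3 comparisons, and those of the chromosome 5 members (Orc5, Mcm7, Cdc7, Dbf4, Pole, Rfc1, Rfc2, Rfc3 and Rfc5) were 1.42, 1.76 and 1.78. On chromosome 6, where the other genes had medians of -0.11, -0.39 and -0.28, Mcm2 rose by 1.65, 1.45 and 1.48. After the median of its own chromosome was subtracted from each member, the median member change was 1.23, 1.59 and 1.53, and 45, 45 and 46 of 46 were above 0. DNA copy number was not analysed here.

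Other genes of replication and the cell cycle were also mostly called higher, with exceptions. These lists were chosen with earlier results of the same samples known. Of 20 other replication subunits 14 were called higher in each comparison, against the 23.2%, 25.4% and 25.6% of all genes, and 0, 1 and 0 lower. Top2a, the topoisomerase of dividing cells, rose by 1.02, 1.26 and 1.24 (adjusted p = 0.0035, 0.000336 and 0.000324 by edgeR) and Topbp1, which helps activate origins, by 1.55, 1.47 and 1.38. The 1 gene called lower was Pold4, a small subunit of polymerase delta, at -1.02 in treated p53-/- lymphoma (adjusted p = 0.031). Of 14 clamp handling and chromatin assembly genes 13 were called higher in each comparison, among them Dnmt1, the maintenance DNA methyltransferase (1.73, 1.49 and 1.45), and Supt16, a histone chaperone (1.21, 1.58 and 1.77).

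Of 9 genes of nucleotide supply 6 were called higher in each comparison, among them Dut, which removes dUTP (1.53, 2.28 and 2.04), while Dck, a salvage kinase, had 0.10, 0.43 and 0.27 and was not called. The 1 called lower was Samhd1, which degrades deoxynucleotides, at -1.57, -2.67 and -2.09 (adjusted p = 0.0162, 7.77e-05 and 0.00037 by edgeR). Of 12 genes of S-phase entry and E2F control, 10, 10 and 11 were called higher and none lower. Ccna2, the cyclin of S phase, rose by 0.69, 0.89 and 0.86 (adjusted p = 0.0411, 0.00772 and 0.00777 by edgeR), and E2f2 had -0.32, -0.13 and 0.04 without a call. Of 18 mitotic genes 13, 17 and 17 were called higher. The proliferation marker Mki67, the most abundant of them, had 0.40, 0.30 and 0.53 (adjusted p = 0.228, 0.351 and 0.0835), and Kif11, a spindle motor, rose by 0.82, 1.07 and 1.03. Median log2 fold changes of the mitotic list were 0.91, 1.34 and 1.25, beside 1.37, 1.58 and 1.55 for the 46 members, and the difference between the lists was not tested.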

How the data were processed

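The deposited values are unscaled expected counts, as RSEM estimates them, for 51826 genes in 81 libraries. The submitters' processing notes name CASAVA 1.8, fastp, STAR 2.7.2b, RSEM 1.1.17 and build mm10. Strandedness and annotation release are not given in the sources used here. Of all values 14.25% were not whole, and counts were rounded. Gene positions came from GENCODE M21 (GRCm38), which held 99.63% of the IDs.

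Biopsies were summed per mouse, the replicate. edgeR 4.0.16 (R 4.3.3) was run with TMM scaling, its filterByExpr filter, labelled sex as covariate and a robust quasi-likelihood test. One fit held normal thymus and 3 lymphoma groups, another the lymphoma groups alone. Adjusted p-values (Benjamini-Hochberg, all genes) under 0.05 were called. Levels are log2 CPM with a prior count of 2. Levels per kb are CPM divided by the longest APPRIS principal transcript. Ratios were compared by exact permutation tests (scipy 1.17.1). Alternatives included DESeq2 1.42.0, limma 3.58.1 (voom over biopsies), other scaling and filters, and left-out mice. On simulated counts for treated p53+/- lymphoma against normal thymus (17693 genes), edgeR recovered 4 of 50 genes changed 1.5-fold, 22 of 50 changed 2-fold and 35 of 50 raised 4-fold, with 3 false calls.

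The members and lists were chosen with earlier results of these data known. In each role list, the members with the largest and smallest average change are given in full, with ratio members and exceptions. In the other lists, the 2 most abundant genes are named, and Pold4 and Samhd1 were named after their values were seen. Library depth ranged from 1.03 M to 26.87 M counts. The labels name a mouse for each sample and no sequencing batch.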

Additional observations from a re-analysis of the deposited data

Results flagged for a closer look

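In the groups of 8, 9 and 10 mice, single mice stood apart from the rest of their group for some members (Dixon's test at its 95% level), 11 times in 138 member and group combinations, and chance flags about 1 in 20. In normal thymus, mouse 387 was lowest for Gins2 (4.75, next 6.10) and Rpa1 (6.12, next 6.86), the mouse with the high B lineage level. In untreated p53-/- lymphoma, mouse 202 was lowest for Gins2 (5.29, next 6.10). In treated p53-/- lymphoma, mouse 857 was highest for Gmnn (7.64, next 6.68) and Tipin (8.40, next 7.23), mouse 869 was highest for Gins3 (5.11, next 4.73) and Clspn (8.07, next 7.29), and mouse 653 was highest for Pola1 (7.43, next 6.36). In the same group, mouse 663 was lowest for Pola2 (5.63, next 6.39) and Lig1 (7.12, next 7.5), and mouse 659 for Pold2 (5.80, next 6.33). Values are log2 CPM.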

How the results depend on the processing

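Over the planned and added alternatives (DESeq2, limma voom over all biopsies, RLE scaling, no scaling, no low-count filter, fits of 2 groups only, no sex covariate, mouse 819 added, no mice with discordant sex-linked genes, single-biopsy tumours, an absolute log2 fold change of at least 1, and left-out mice), the members called higher numbered 37 to 44 in untreated p53-/-, 39 to 45 in treated p53-/- and 39 to 44 in treated p53+/- lymphoma, and 0 were called lower. The lowest number in each came from the fold threshold, where 2230, 2643 and 2553 of all 17841 genes tested were called higher. Without that threshold, 3107 to 4672, 3845 to 5037 and 3782 to 5013 of all genes were called higher, with 16206 to 38772 tested. No alternative called a member between lymphoma groups. The alternatives without mice 643 and 881 were chosen after seeing the data. No mouse had fewer than 5 M counts, so the alternative without such mice was not run. The ratio of Cdt1 to Gmnn in treated p53+/- lymphoma against normal thymus turned from -0.03 to 0.056 without normal mouse 387 (adjusted p = 0.797, exact permutation), and the ratio in treated against untreated p53-/- lymphoma passed the threshold without mouse 881 (-0.62, exact permutation adjusted p = 0.0447). The causes were not tested. Apart from the fold threshold, calls of the 46 members were lost 17 times (Rrm2 6, Gins4 5, Orc4 4, Gins3 2) and gained 2 times (Gins4). Without normal mouse 387 the share of higher genes among all calls went from 56.91%, 48.81% and 50.3% to 64.27%, 57.21% and 59.93%, and limma voom gave 44.06% for untreated p53-/- lymphoma. The median over all genes ranged from -0.12 to 0.21 over the alternatives, and the member median from 1.25 to 1.70. Over all genes, DESeq2 called 75, 12 and 3 genes and limma voom 39, 1 and 1 between the lymphoma groups, where edgeR called 0, and edgeR called 21 without the sex covariate and 7 without the low-count filter between treated p53+/- and untreated p53-/- lymphoma. No paired analysis was possible because sample numbers name single mice and biopsies and are not shared between groups. All 46 members passed the low-count filter.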
